A study of Mus musculus with 10 samples.

Results

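The comparison set young against adult dentate gyrus. Arrays titled 4 or 6 weeks old formed the young pool (4 arrays) and arrays titled 10 or 12 weeks old the adult pool (4 arrays), 8 of the 10 arrays of the series. The 2 arrays of 8 weeks were left out of the pools and serve below as arrays that the pooling did not use. Every array held total RNA of the dentate gyrus of female mice, by the labels, with the strain spelled C56BL/6J and no treatment. Both gyri were cut out along their edges with a needle tip. The pools differ in age alone as far as the labels say, and each pool mixes 2 ages. Nothing in the labels ties the 2 arrays of an age to different mice. The p-values and standard errors measure the spread between the arrays of a pool. That spread includes the difference between the 2 ages of the pool and may be partly technical. Levels are log2 units as deposited, 1 probe set per gene, for 19752 genes.

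The dentate gyrus receives cortical input to the hippocampus, and its granule neurons are still born after birth in a thin layer of progenitors. Newborn granule cells send an axon toward CA3 and grow dendrites, guided by secreted and membrane-bound cues, while their cytoskeleton is remodelled. Over the same weeks oligodendrocytes form myelin, which needs much locally made cholesterol, and a matrix of proteoglycans and link proteins settles around neurons.

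The granule cell genes Prox1, C1ql2, Calb1 and Dsp lay between 11.35 and 12.73 on all 10 arrays, so the granule cells of the labelled tissue were present. These markers do not measure adjoining tissue. The first genes of the CA1 and of the CA2 and CA3 lists, Wfs1 and Grik4, lay between 10.41 and 10.96 and between 10.41 and 10.60. The labelled sex was not borne out by its markers. Xist, the transcript that coats the inactive X chromosome of females, lay between 5.41 and 6.02, on all 10 arrays, and Uty, Kdm5d and Eif2s3y, which lie on the Y chromosome, between 8.59 and 9.34. The array of 6 weeks replicate 1 stood apart in Ttr, the transthyretin gene of choroid plexus, at 13.77 against 8.87 to 10.15 on the others. Correlations across genes were 0.997 to 0.998 within pools (12 pairs) and 0.996 to 0.998 between them (16 pairs). These correlations mostly reflect differences in level between genes.

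At an adjusted p under 0.05 (limma, two-sided, Benjamini-Hochberg over all genes), 36 of 19752 genes differed, 0.182% of those tested. Of these, 35 were lower in the adult pool (0.177%) and 1 was higher (0.00506%); 3010 genes had an unadjusted p under 0.05. Of the 36 genes, 16 belong to lists of neurogenesis or oligodendrocyte genes and 20 to neither. All 36 also separated the pools with no overlap, meaning that every adult array lay on the same side of every young array. That was so for 1982 genes in all (10.0% of genes), of which 1295 were lower in the adult pool (6.56%) and 687 higher (3.48%). The differences were mostly small, with a median of −0.16 for the genes that were lower and 0.16 for those that were higher. A difference of at least 0.3 log2 units was held by 133 of the lower and 26 of the higher genes, and one of at least 0.5 by 31 and 2. Signal also differed: 243 of the 687 higher genes were dim, with a mean under the level that marks unexpressed receptor genes (6.99), against 60 of the 1295 lower genes. A gap of at least 0.2 between the nearest arrays of the pools was found for 38 genes, 36 lower and 2 higher, and 20 of the 36 were neurogenesis or oligodendrocyte genes.

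The number of calls depended on single arrays. Without 12 weeks replicate 2 no gene was called, and the 36 genes then had adjusted p between 0.0503 and 0.108. Leaving out replicate 1 of 4 or of 12 weeks left 2 calls, and replicate 2 of 4 or of 10 weeks 3. Leaving out replicate 1 of 10 weeks left 5 calls, while 49 genes were called when replicate 1 of 6 weeks was dropped and 72 when its replicate 2 was. Dropping an array cannot turn the sign of a gene without overlap, so these fits bear on the calls alone. Over the 24 alternatives described at the end, single calls were kept in 5 (Dhcr7) to 19 (Eomes). Sema3c was called in 12 of them, Sfrp1 in 11, Arrb2 in 8 and Zfp57 in 7. The split of genes without overlap depends on scaling: 34.7% of them were higher in the adult pool as deposited, 51.9% after quantile normalization (910 of 1755) and 57.5% after median centring (1103 of 1918).

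Outside the neurogenesis and oligodendrocyte lists, Sema3c had the largest called fall and Sfrp1 the next. Sema3c, a secreted semaphorin that steers growing axons and migrating cells (chromosome 5, 17574816 to 17730268 in GRCm38.p6), measured 10.46 and 10.66 at 4 weeks, 10.14 and 10.19 at 6 weeks, 9.59 and 9.61 at 10 weeks and 9.39 and 9.29 at 12 weeks. The values stepped down with every age, and the gap between the pools was 0.53. Its pool means were 10.37 ± 0.24 and 9.47 ± 0.16 (SD, n = 4 each), a fall by 0.90 ± 0.12 (SE), 1.86-fold, at a limma adjusted p of 0.0237. Sfrp1, a secreted frizzled-related protein that binds Wnt ligands (chromosome 8, 23411383 to 23449632), measured 8.88 and 8.87 at 4 weeks, 8.56 and 8.34 at 6 weeks, 7.77 and 8.00 at 10 weeks and 7.85 and 7.94 at 12 weeks. It fell 1.70-fold (−0.77 ± 0.11, adjusted p = 0.036), and all of the fall lay before 10 weeks. In bulk tissue, fewer cells of a type and less RNA per cell cannot be told apart, here or for any gene below.

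3 further genes of secreted or surface proteins fell less. Apcdd1, a membrane protein that dampens Wnt signalling, measured 10.65 and 10.69 at 4 weeks, 10.60 and 10.60 at 6 weeks, 10.25 and 10.32 at 10 weeks and 10.21 and 10.32 at 12 weeks, so that both pools were tight and 0.27 apart (−0.36 ± 0.04, adjusted p = 0.0222). Ndnf, a secreted neuron-derived factor that also marks a class of interneurons, measured 10.20 and 10.21 at 4 weeks, 10.26 and 10.06 at 6 weeks, 9.73 and 9.77 at 10 weeks and 9.85 and 9.76 at 12 weeks. Its 4 young arrays did not order by age, and its difference was −0.40 ± 0.05 (adjusted p = 0.0237). Ednrb, the endothelin B receptor found on astrocytes, fell by 0.32 ± 0.05 (adjusted p = 0.048) between pool means of 10.90 ± 0.08 and 10.58 ± 0.05 (SD, n = 4).

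Genes of chromatin and of the dividing cell fell as well. Zfp57, a zinc finger protein that protects DNA methylation at imprinted loci (chromosome 17, 37001163 to 37010729), measured 9.37 and 9.21 at 4 weeks, 8.97 and 8.75 at 6 weeks, 8.44 and 8.43 at 10 weeks and 8.33 and 8.31 at 12 weeks. Its adult arrays lay close together and its young arrays were spread by age, and it fell 1.62-fold (−0.70 ± 0.11, adjusted p = 0.0484). Hmgb2, a chromatin protein abundant in dividing cells, measured 7.94 and 7.98 at 4 weeks, 7.75 and 7.84 at 6 weeks, 7.59 and 7.49 at 10 weeks and 7.42 and 7.37 at 12 weeks, with the narrowest gap of the 36 called genes, 0.16 (−0.41 ± 0.06, adjusted p = 0.0478). Hmmr, a hyaluronan receptor that also acts at the mitotic spindle, fell by 0.33 ± 0.05 (adjusted p = 0.0329) but was dim on all arrays, at 5.27 or less. Cell cycle genes were lower beside them: of 33, 11 were lower without overlap and 0 higher, 30 had a negative difference (median −0.12), 1 was called, and the mean level was 7.88 to 8.01 on young and 7.71 to 7.78 on adult arrays. Over all genes 48.8% had a negative difference, and 55.7% of those that were not dim. The part of dividing cells in these results and in those on chromatin and histones below was not tested.

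Cytoskeletal and membrane genes made up the next group. Mtss1, a protein that bends the plasma membrane and regulates actin (chromosome 15, 58941234 to 59083956), measured 10.04 and 10.02 at 4 weeks, 9.76 and 9.69 at 6 weeks, 9.36 and 9.28 at 10 weeks and 9.34 and 9.33 at 12 weeks. The 4 adult arrays were nearly level and the fall was 1.46-fold (−0.55 ± 0.08, adjusted p = 0.0337). Cxadr, the coxsackievirus and adenovirus receptor, a cell adhesion molecule of the developing brain, measured 8.04 and 8.16 at 4 weeks, 7.94 and 7.79 at 6 weeks, 7.41 and 7.50 at 10 weeks and 7.50 and 7.33 at 12 weeks and fell to the same degree (−0.55 ± 0.08, adjusted p = 0.0334). Ttc28, a repeat protein of the spindle midzone, fell by 0.46 ± 0.07 (adjusted p = 0.0402) between pool means of 10.31 ± 0.13 and 9.85 ± 0.08 (SD, n = 4). Nhsl1, a relative of an actin-remodelling protein of the leading edge, fell by 0.29 ± 0.04 on the probe set used, while its other, dimmer probe set differed by −0.04. Arrb2, beta-arrestin 2, which desensitises G protein-coupled receptors, measured 10.06 and 10.09 at 4 weeks, 10.05 and 10.06 at 6 weeks, 9.85 and 9.79 at 10 weeks and 9.77 and 9.78 at 12 weeks. Its 4 young arrays were nearly level, and all lay above the adult arrays by at least 0.20 (−0.27 ± 0.04, adjusted p = 0.036).

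Enzymes accounted for 4 of the remaining calls. Ddah2, which breaks down methylated arginines that inhibit nitric oxide synthase, measured 9.22 and 9.09 at 4 weeks, 9.02 and 8.87 at 6 weeks, 8.61 and 8.44 at 10 weeks and 8.45 and 8.61 at 12 weeks (−0.53 ± 0.08, adjusted p = 0.0337). Cyp11a1, the side-chain cleavage enzyme that begins steroid synthesis from cholesterol, measured 7.50 and 7.51 at 4 weeks, 7.49 and 7.49 at 6 weeks, 7.26 and 7.14 at 10 weeks and 7.24 and 7.16 at 12 weeks. Its young arrays were almost identical and its difference was −0.30 ± 0.04 (adjusted p = 0.0337), at a level not far above the dim reference. Smpdl3a, a phosphodiesterase related to acid sphingomyelinase, fell by 0.30 ± 0.05, and Dhcr7, described with its pathway below, by 0.32 ± 0.05. Midn, midnolin, which carries nuclear proteins such as those of immediate early genes to the proteasome (chromosome 10, 80146005 to 80158368), measured 10.72 and 10.69 at 4 weeks, 10.57 and 10.61 at 6 weeks, 10.26 and 10.29 at 10 weeks and 10.28 and 10.29 at 12 weeks. The adult arrays were nearly level and stood 0.28 below the lowest young array (−0.37 ± 0.04, adjusted p = 0.0222). Clec2l, a C-type lectin-like membrane protein, completed the calls (−0.30 ± 0.05, adjusted p = 0.0406).

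**Figure D1:**
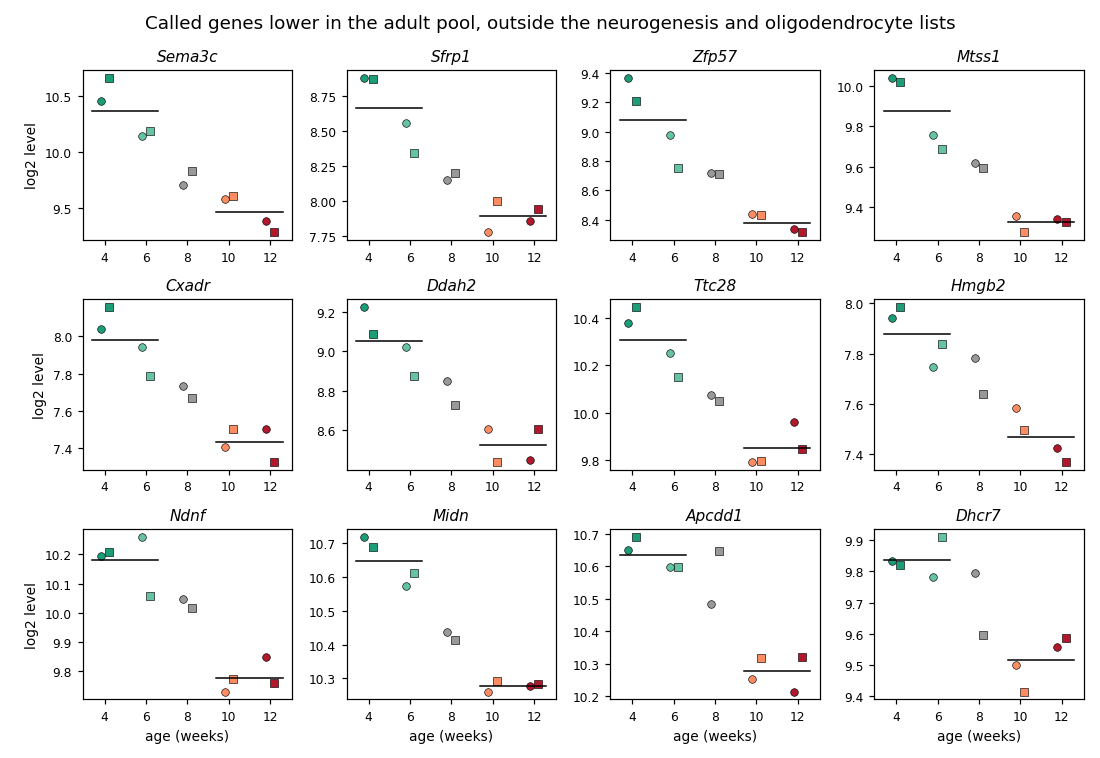
Level (log2, vertical axis, scaled per gene) by age in weeks for the 12 largest called falls among genes that were not dim and lie outside the neurogenesis and oligodendrocyte lists; circles are replicate 1, squares replicate 2, grey the 8-week arrays outside the pools, and lines the pool means. In every panel the 4 adult arrays lie below the 4 young arrays, by 0.53 for Sema3c and by 0.16 for Hmgb2.

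The 1 called rise was that of Nxpe2, a gene of little known function, which measured 6.15 and 6.17 at 4 weeks, 6.09 and 6.12 at 6 weeks, 6.52 and 6.51 at 10 weeks and 6.42 and 6.46 at 12 weeks and was dim on all arrays. Its 8-week arrays fell on either side, at 6.49 and 6.16. Among genes that were not dim, none passed in this direction, and those of smallest p are given as values. Crebrf, which represses the stress transcription factor Creb3, measured 10.10 and 10.08 at 4 weeks, 10.27 and 10.20 at 6 weeks, 10.47 and 10.51 at 10 weeks and 10.45 and 10.45 at 12 weeks (0.31 ± 0.05, adjusted p = 0.0529). Jade2, a subunit of a histone acetyltransferase complex, measured 8.84 and 8.84 at 4 weeks, 8.93 and 8.91 at 6 weeks, 9.13 and 9.10 at 10 weeks and 9.18 and 9.25 at 12 weeks (0.28 ± 0.05, adjusted p = 0.0538). Il33, a cytokine kept in the nucleus of oligodendrocytes and astrocytes, measured 9.07 and 8.96 at 4 weeks, 9.29 and 9.19 at 6 weeks, 9.54 and 9.51 at 10 weeks and 9.49 and 9.63 at 12 weeks. It had the largest difference of the 12 (0.42 ± 0.07, adjusted p = 0.0554), with no overlap between the pools.

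The other 9 of the 12 lay between 0.23 and 0.34, with adjusted p from 0.0594 to 0.0734. They were Lonrf3 and Rnf169, which have the RING domains of ubiquitin ligases, Zkscan16, a zinc finger gene, and Epb41l4b, a membrane-skeleton protein. The rest were Acnat1, an enzyme of peroxisomal lipid metabolism, Vav3, a signalling protein, Fmn1, a formin that lengthens actin filaments, Lrrc8c, a subunit of volume-regulated anion channels, and Stk26, a kinase. Fmn1 measured 8.42 and 8.42 at 4 weeks, 8.64 and 8.63 at 6 weeks, 8.85 and 8.90 at 10 weeks and 8.79 and 8.83 at 12 weeks, so that the 4-week arrays were the lowest and the 10-week arrays the highest (0.32 ± 0.06, adjusted p = 0.0713). Vav3 measured 9.11 and 8.99 at 4 weeks, 8.98 and 8.98 at 6 weeks, 9.24 and 9.24 at 10 weeks and 9.45 and 9.48 at 12 weeks, so that the 12-week arrays stood above the 10-week arrays. Xdh, xanthine oxidoreductase, which makes uric acid, had the largest difference among the genes that were higher without overlap and not dim: it measured 7.08 and 7.08 at 4 weeks, 7.46 and 7.46 at 6 weeks, 8.03 and 7.85 at 10 weeks and 7.64 and 7.70 at 12 weeks (0.53 ± 0.11, adjusted p = 0.0799).

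**Figure D2:**
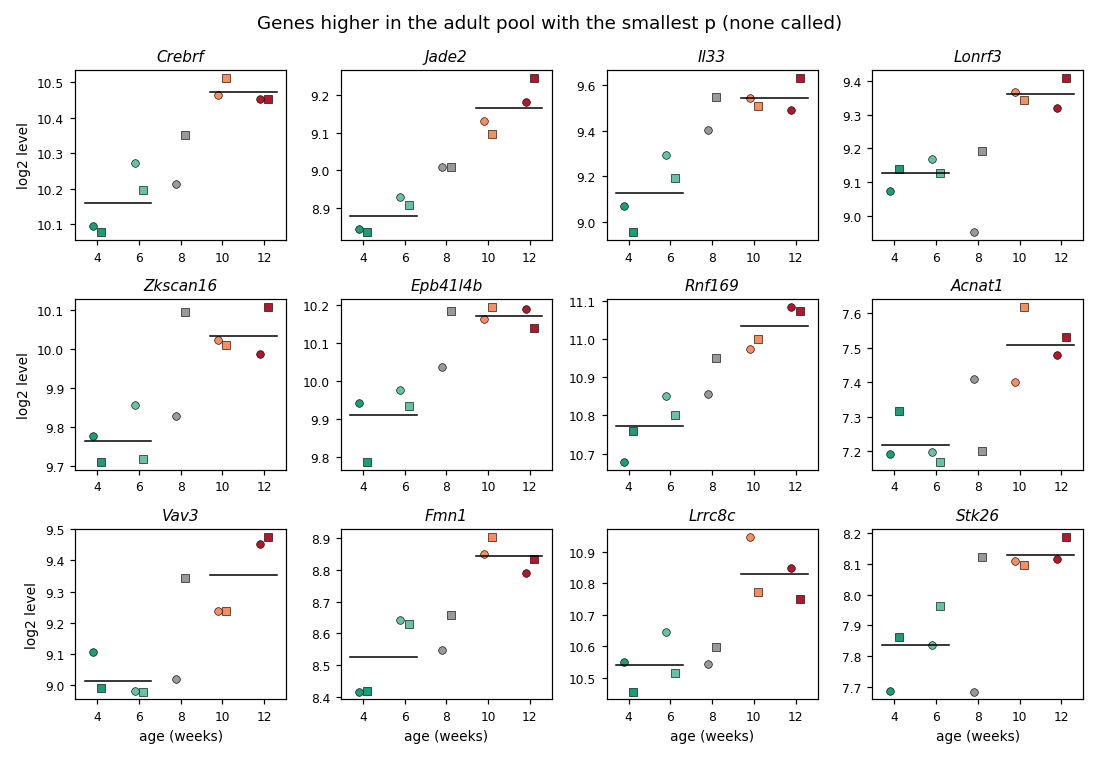
Level (log2, vertical axis, scaled per gene) by age in weeks for the 12 genes of smallest p that were higher in the adult pool and not dim, with symbols as in the plot of the falls. All 4 adult arrays lie above all 4 young arrays in each panel, but none of the 12 passed the threshold; the differences run from 0.23 (Lonrf3) to 0.42 (Il33).

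Pathway lists were read against the shares of all genes, 6.56% without overlap and lower and 3.48% higher (8.57% and 3.08% of the 14410 genes that were not dim). Counts of negative differences are read against 48.8% of all genes and 55.7% of the genes that were not dim. The lists were chosen with earlier results of these data known, so a high share is a description. Of 45 lists, 12 had a called member, and 28 had a share of lower members above that of all genes (25 above that of the genes that were not dim). The share of higher members was above that of all genes in 12 lists and above that of the genes that were not dim in 16. List members that were not called are named below because their pools did not overlap, after their values were seen.

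**Figure D3:**
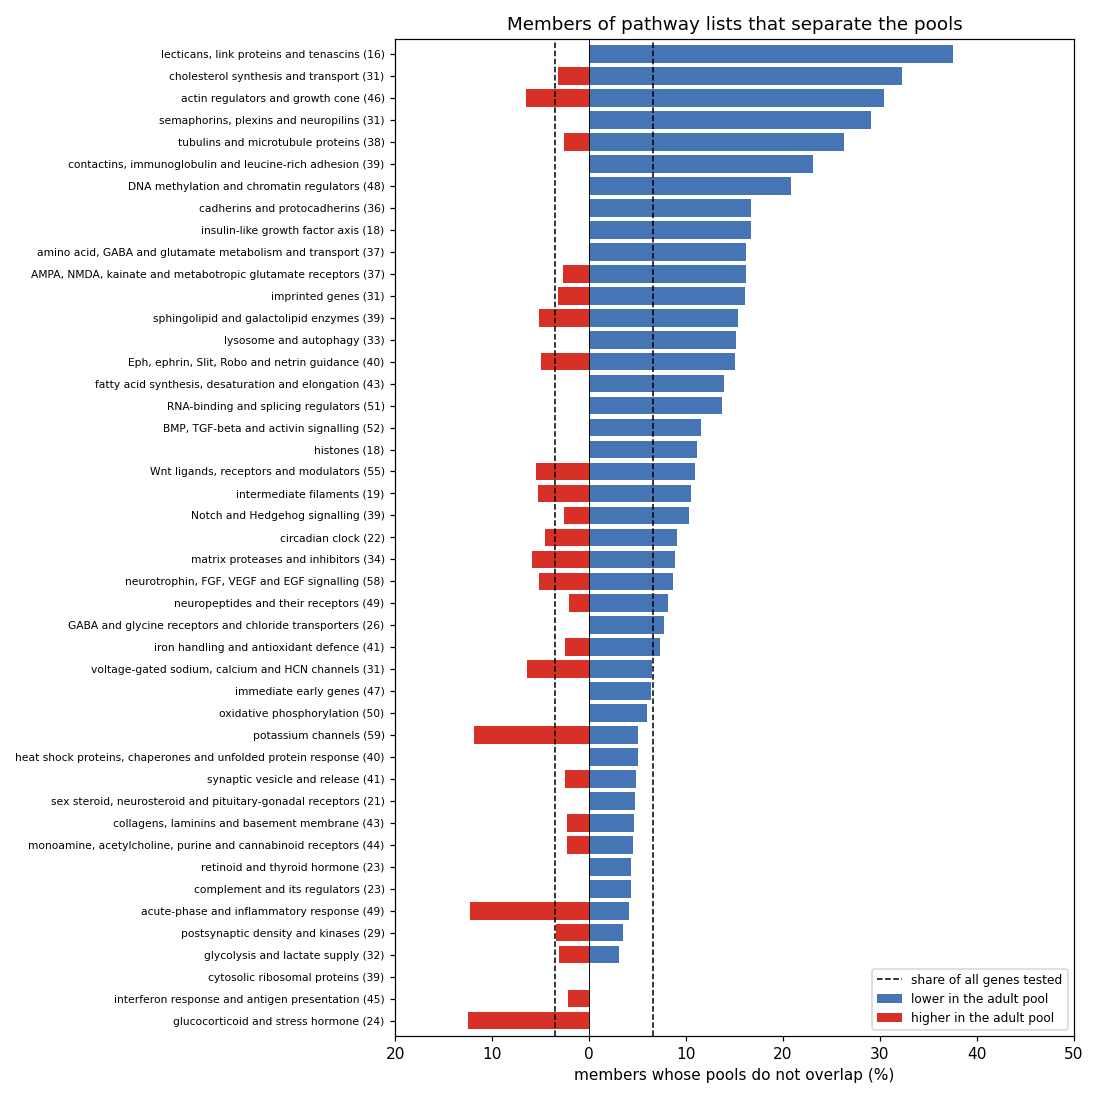
Share of each pathway list's measured members (number in brackets) whose pools did not overlap, lower in the adult pool to the right and higher to the left, in percent; dashed lines mark the shares of all genes, 6.56% and 3.48%. The longest bars to the right are those of lecticans (37.5%), cholesterol (32.3%), actin and growth cone genes (30.4%) and semaphorins (29.0%), and those to the left glucocorticoid (12.5%), inflammatory (12.2%) and potassium channel genes (11.9%).

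Guidance ligands and receptors had many lower members. Of 31 semaphorins, plexins and neuropilins, 9 were lower without overlap and 0 higher, with a median difference of −0.12 against 0.00286 for all genes, and 1 of them, Sema3c, was called. The membrane semaphorin Sema6a measured 9.95 and 10.03 at 4 weeks, 9.69 and 9.69 at 6 weeks, 9.35 and 9.40 at 10 weeks and 9.41 and 9.53 at 12 weeks (−0.42 ± 0.08, adjusted p = 0.0713). The receptor Plxna3, which carries repulsive semaphorin signals into axons, measured 9.11 and 9.08 at 4 weeks, 8.94 and 8.84 at 6 weeks, 8.63 and 8.59 at 10 weeks and 8.62 and 8.69 at 12 weeks (−0.36 ± 0.06, adjusted p = 0.0554). Sema3a (−0.29 ± 0.08), Sema4d (−0.25 ± 0.07), Sema5b (−0.22 ± 0.04), Sema6c (−0.15 ± 0.05), Plxnb3 (−0.34 ± 0.07) and Plxnd1 (−0.16 ± 0.05) were the others. In the list of Eph, Slit and netrin guidance (40 genes), 6 were lower and 2 higher. The secreted repellent Draxin measured 8.72 and 8.80 at 4 weeks, 8.43 and 8.66 at 6 weeks, 8.35 and 8.31 at 10 weeks and 7.97 and 8.19 at 12 weeks (−0.45 ± 0.10), and Ntng1, the synaptic adhesion protein netrin G1, measured 9.92 and 9.74 at 4 weeks, 10.23 and 10.00 at 6 weeks, 10.29 and 10.29 at 10 weeks and 10.49 and 10.37 at 12 weeks (0.39 ± 0.09); neither passed. After quantile normalization this list had 4 lower and 8 higher, and after centring to 3 and 6, whereas 8 and 7 semaphorin genes were lower and 0 were higher.

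The proteins that turn such signals into growth of neurites followed. Of 46 actin and growth cone genes, 14 were lower and 3 higher, with 1 called, Dpysl5, a collapsin response mediator of growing neurites, at −0.70 ± 0.07 (adjusted p = 0.0129). Its relative Dpysl3 measured 10.68 and 10.79 at 4 weeks, 10.22 and 10.15 at 6 weeks, 9.71 and 9.69 at 10 weeks and 9.62 and 9.63 at 12 weeks (−0.80 ± 0.13, adjusted p = 0.0509), and Tmsb10, a thymosin that holds actin monomers, measured 10.61 and 10.62 at 4 weeks, 10.24 and 10.23 at 6 weeks, 10.00 and 9.95 at 10 weeks and 9.88 and 9.72 at 12 weeks (−0.54 ± 0.10, adjusted p = 0.0687). Both had wide gaps but missed the threshold in this fit, which counts their step from 4 to 6 weeks as spread within the young pool. Dpysl4 (−0.34 ± 0.09), the filopodial bundler Fscn1 (−0.31 ± 0.07) and the cofilin kinase Limk1 (−0.20 ± 0.05) were also lower, and Fmn1, Diaph2 (0.21 ± 0.05) and Enah (0.07 ± 0.04) higher. Of 38 tubulin and microtubule genes, 10 were lower and 1 higher (Map7, 0.12 ± 0.04). Dcx, doublecortin of migrating neurons, was called (−0.98 ± 0.16, adjusted p = 0.0484). Tubb2b (−0.35 ± 0.07), the kinesin Kif21b (−0.28 ± 0.08), Tuba1a (−0.23 ± 0.07), Tubb2a (−0.23 ± 0.05), Tubb5 (−0.21 ± 0.06), Tubb6 (−0.19 ± 0.05), Stmn4 (−0.19 ± 0.06), Map6 (−0.16 ± 0.05) and Dclk1 (−0.08 ± 0.04) did not pass. With genes of the neurogenesis lists left out, the counts were 12 lower of 42 and 8 of 33.

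Markers of newborn neurons were lower beside these lists. Of 24 genes of neuroblasts and immature neurons, 14 were lower without overlap and 0 higher, and their mean level was 10.24 to 10.53 on young and 9.97 to 10.03 on adult arrays. The part of those cells in the guidance and cytoskeleton results was not tested.

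In the matrix, the share of lower members was 37.5% in the list of lecticans, link proteins and tenascins, 6 of 16, with none called. With genes of the neurogenesis and oligodendrocyte lists left out, 5 of 14 were lower. Tnc, tenascin C, a matrix glycoprotein of growing tissue, measured 9.25 and 9.25 at 4 weeks, 8.70 and 8.50 at 6 weeks, 7.75 and 8.03 at 10 weeks and 8.17 and 8.07 at 12 weeks. The 4-week arrays stood well above the others, and the wide spread within the young pool went with an adjusted p of 0.0594 for a difference of −0.92 ± 0.17. Hapln1, the link protein that ties proteoglycans to hyaluronan, measured 9.82 and 9.93 at 4 weeks, 9.67 and 9.64 at 6 weeks, 9.37 and 9.43 at 10 weeks and 9.25 and 9.24 at 12 weeks (−0.44 ± 0.07, adjusted p = 0.0512). Acan, aggrecan of the perineuronal net, measured 8.30 and 8.18 at 4 weeks, 8.18 and 8.17 at 6 weeks, 8.03 and 8.02 at 10 weeks and 8.01 and 8.10 at 12 weeks (−0.17 ± 0.05), and Ncan (−0.21 ± 0.06), Cspg5 (−0.12 ± 0.04) and Tnr (−0.14 ± 0.04) were lower too. The matrix protease gene Adamts4, which cleaves lecticans, measured 8.73 and 8.59 at 4 weeks, 8.36 and 8.45 at 6 weeks, 8.24 and 8.17 at 10 weeks and 8.04 and 8.24 at 12 weeks (−0.36 ± 0.08, adjusted p = 0.0903). Among 43 collagen, laminin and basement membrane genes, 2 were lower and 1 higher, 4.65% and 2.33% of the list. Mmp8, a collagenase, was the other gene with a gap over 0.2 that was higher (0.50 ± 0.11, adjusted p = 0.0799), and like Nxpe2 it was dim, its young arrays lying at 5.09 or less.

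Adhesion genes showed smaller differences. Of 39 contactins and immunoglobulin or leucine-rich adhesion genes, 9 were lower and 0 higher. L1cam, which supports the growth and bundling of axons, measured 10.31 and 10.24 at 4 weeks, 10.08 and 10.15 at 6 weeks, 9.99 and 9.87 at 10 weeks and 9.82 and 9.85 at 12 weeks (−0.31 ± 0.06, adjusted p = 0.0696). Igsf21 (−0.29 ± 0.06), Nfasc (−0.24 ± 0.06), Cadm4 (−0.21 ± 0.06), Lrrtm3 (−0.17 ± 0.06), Chl1 (−0.14 ± 0.05), Cntn2 (−0.13 ± 0.05), Ncam1 (−0.11 ± 0.04) and Nrxn2 (−0.08 ± 0.04) followed. Of 36 cadherins and protocadherins, 6 were lower and 0 higher, led by Dchs1 (−0.29 ± 0.06) and Pcdh11x (−0.26 ± 0.06). None of these 15 genes passed the test.

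Secreted growth signals were mixed. Of 55 Wnt genes, 6 were lower and 3 higher, with a median of 0.02. Beside Sfrp1, the ligand Wnt5a (−0.36 ± 0.08) and the receptor Fzd6 (−0.28 ± 0.07) were lower, while the ligands Wnt16 (0.19 ± 0.04), Wnt11 (0.14 ± 0.05) and Wnt2b (0.10 ± 0.05) were higher. Of 52 genes of BMP, TGF-beta and activin signalling, 6 were lower and 0 higher. With genes of the neurogenesis and oligodendrocyte lists left out, 4 of 49 were lower, near the 8.57% of genes that were not dim. Bmp4, which keeps progenitors quiet and is also made by new oligodendrocytes, measured 8.93 and 8.82 at 4 weeks, 8.62 and 8.63 at 6 weeks, 8.19 and 8.35 at 10 weeks and 7.81 and 7.91 at 12 weeks (−0.69 ± 0.12, adjusted p = 0.0554), so that its 12-week arrays were the lowest. Id3 and Id1, inhibitors of differentiation that BMP signals induce, differed by −0.33 ± 0.06 and −0.25 ± 0.07, and the inhibin subunit Inha by −0.34 ± 0.06. In the neurotrophin, FGF, VEGF and EGF list, 5 of 58 were lower and 3 higher. Spry2, a feedback inhibitor of FGF receptors, measured 10.04 and 9.93 at 4 weeks, 10.08 and 9.93 at 6 weeks, 9.70 and 9.72 at 10 weeks and 9.79 and 9.65 at 12 weeks (−0.29 ± 0.05, adjusted p = 0.0594), and Bdnf, the neurotrophin of active granule cells, did not separate (−0.10 ± 0.06). In the Hedgehog and Notch list, Disp1, which releases Hedgehog ligands, measured 9.03 and 8.88 at 4 weeks, 9.21 and 9.15 at 6 weeks, 9.29 and 9.41 at 10 weeks and 9.50 and 9.37 at 12 weeks (0.32 ± 0.07, adjusted p = 0.093), but its other probe set differed by 0.06.

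Cholesterol genes had the second largest share of lower members. Of 31 genes of synthesis and transport, 27 had a negative difference, 10 were lower without overlap and 1 was higher; the median was −0.11. Dhcr7, the reductase of the last step, measured 9.83 and 9.82 at 4 weeks, 9.78 and 9.91 at 6 weeks, 9.50 and 9.41 at 10 weeks and 9.56 and 9.59 at 12 weeks and was the 1 called member (−0.32 ± 0.05, adjusted p = 0.0478). The call was kept in 5 of 24 alternatives. With quantile normalization the list had 0 called and 6 lower members, and with centring 0 and 8. Hmgcs1, which condenses the precursor of mevalonate, measured 11.14 and 11.24 at 4 weeks, 11.08 and 11.07 at 6 weeks, 10.66 and 10.88 at 10 weeks and 10.71 and 11.00 at 12 weeks (−0.32 ± 0.08, adjusted p = 0.0978). Sqle, squalene epoxidase, measured 10.23 and 10.43 at 4 weeks, 10.05 and 10.12 at 6 weeks, 9.69 and 9.86 at 10 weeks and 9.62 and 10.04 at 12 weeks (−0.40 ± 0.10), which left a gap of 0.01 between the pools. Nsdhl (−0.31 ± 0.07), Cyp51 (−0.25 ± 0.08), Tm7sf2 (−0.25 ± 0.05), Lss (−0.21 ± 0.06), Fdft1 (−0.15 ± 0.05) and Sc5d (−0.12 ± 0.04), enzymes between squalene synthesis and the final sterols, and the lipid carrier Apoe (−0.08 ± 0.04) were the other lower members. Abcg1, which exports cholesterol from cells, was higher (0.21 ± 0.07). In 4 of these genes the adult array nearest the young pool was 12 weeks replicate 2: it measured 11.00 for Hmgcs1, 10.04 for Sqle, 9.55 for Nsdhl and 9.69 for Cyp51.

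Cholesterol synthesis genes are known to be switched on together by the transcription factor Srebp2 with the CCAAT-binding factor NF-Y, so the 250 bases before their starts were searched for the words CCAAT, TCACCCCAC (the sterol element of the LDL receptor promoter) and CACGTG (an E-box), on both strands. CCAAT was found in 19 of the 24 list genes with an entry in the RefSeq promoter table (GRCm38.p6), against 38.8% of 15483 genes. TCACCCCAC was found in 1 of the 24, against 0.594% of genes, and CACGTG in 6, against 8.13%. Of the 8 lower members with an entry, 7 held CCAAT at 1 or more of their starts, and Apoe held none of the words at any of its 3 starts. A match is a match of letters and shows no binding, and most genes of the list held CCAAT whether or not they separated the pools. The sequences below run 5′ to 3′ on the gene's strand and end at the base before the start. Matches are in capitals (ATTGG is CCAAT on the other strand). They are promoters of some of the lower members, at different steps of the pathway. Those of Lss, Nsdhl and Sc5d also held CCAAT and are not shown.
Hmgcs1 (chr13:119690101-119690350, plus strand): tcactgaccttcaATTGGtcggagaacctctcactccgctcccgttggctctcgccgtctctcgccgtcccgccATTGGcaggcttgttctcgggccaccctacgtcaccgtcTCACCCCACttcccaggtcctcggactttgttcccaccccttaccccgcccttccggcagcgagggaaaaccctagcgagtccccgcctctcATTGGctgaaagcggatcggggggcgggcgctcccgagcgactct
Cyp51 (chr5:4104698-4104947, minus strand): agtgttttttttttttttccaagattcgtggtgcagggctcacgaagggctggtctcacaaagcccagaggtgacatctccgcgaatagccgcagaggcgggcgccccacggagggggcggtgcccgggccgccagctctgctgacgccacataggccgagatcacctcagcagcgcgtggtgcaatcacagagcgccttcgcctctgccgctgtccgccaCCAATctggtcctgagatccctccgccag
Tm7sf2 (chr19:6067851-6068100, minus strand): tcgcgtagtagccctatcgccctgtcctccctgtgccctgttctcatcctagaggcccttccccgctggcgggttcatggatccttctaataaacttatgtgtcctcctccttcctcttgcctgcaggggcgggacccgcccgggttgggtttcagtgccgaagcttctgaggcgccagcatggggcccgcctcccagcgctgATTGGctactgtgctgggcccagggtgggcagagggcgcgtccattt
Dhcr7 (chr7:143829964-143830213, plus strand, the start farthest downstream of 3 and the only one of them with CCAAT): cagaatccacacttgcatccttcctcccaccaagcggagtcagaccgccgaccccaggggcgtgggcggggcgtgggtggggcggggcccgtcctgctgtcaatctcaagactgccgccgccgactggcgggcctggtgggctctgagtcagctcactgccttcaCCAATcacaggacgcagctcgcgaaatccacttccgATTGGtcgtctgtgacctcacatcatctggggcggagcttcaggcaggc
Hmgcs1 held CCAAT 3 times and TCACCCCAC once, the Dhcr7 start shown held CCAAT 2 times, its other starts holding none (and 1 of them CACGTG), and Cyp51 and Tm7sf2 held it 1 time each, within 47 bases of the start.

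Other lipid genes differed less. Of 43 genes of fatty acid synthesis, 6 were lower and 0 higher, the largest being Fabp5 (−0.27 ± 0.07) and Fads2 (−0.18 ± 0.05). Of 39 sphingolipid and galactolipid genes, 6 were lower and 2 higher. With genes of the neurogenesis and oligodendrocyte lists left out, 4 of 37 were lower and 2 higher. Ugt8a, which makes the galactolipids of myelin, measured 10.21 and 10.17 at 4 weeks, 9.75 and 9.82 at 6 weeks, 9.42 and 9.45 at 10 weeks and 9.33 and 9.59 at 12 weeks (−0.54 ± 0.11, adjusted p = 0.0696), and Fa2h (−0.34 ± 0.08), Cers4 (−0.27 ± 0.07) and Cers2 (−0.20 ± 0.05) had lower values. Beside these lipid genes, 9 of 17 precursor genes and 12 of 22 myelin genes were lower and 0 higher, the mean level of the myelin list being 10.30 to 10.35 on young and 10.06 to 10.12 on adult arrays. Their part in the lipid results was not tested.

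Regulators of DNA methylation and chromatin had 10 lower members of 48 and 0 higher. Tet1, which oxidises methylated cytosine, measured 10.90 and 10.91 at 4 weeks, 10.58 and 10.62 at 6 weeks, 10.35 and 10.43 at 10 weeks and 10.36 and 10.28 at 12 weeks (−0.40 ± 0.08, adjusted p = 0.0727). The 4-week arrays were the highest, and the 6-week arrays stood 0.15 above the nearest adult array. Tet3 (−0.21 ± 0.08), the methyltransferases Dnmt3a (−0.23 ± 0.08) and Dnmt1 (−0.14 ± 0.06), and the chromatin proteins Hmgb3 (−0.40 ± 0.09), Hmgn2 (−0.19 ± 0.05) and Cbx1 (−0.16 ± 0.05) were lower, as was Smarca4 (−0.11 ± 0.04); with Hmgb2, which was called, and Bcl11b (−0.07 ± 0.04) they make up the 10. Of 18 histone genes, 17 had a negative difference, with a median of −0.10, but only H2bc14 (−0.22 ± 0.08) and H1f1 (−0.18 ± 0.05) did not overlap. In the imprinted list, which also holds Zfp57 as a protector of imprints, 5 of 31 genes were lower and 1 higher. Beside Zfp57 these were Nnat (−0.30 ± 0.06), Mest (−0.30 ± 0.08), Usp29 (−0.19 ± 0.06) and Peg3 (−0.08 ± 0.05), expressed from the paternal allele, and the higher one was the maternally expressed potassium channel gene Kcnk9 (0.18 ± 0.07). Splicing and RNA-binding genes had 7 lower members of 51, led by Srsf6 (−0.33 ± 0.07, adjusted p = 0.0738). In the direction of higher levels, the splicing-related gene Rsrp1 had the largest difference of its list (0.49 ± 0.11), and its pools overlapped.

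Receptor and channel lists had smaller differences. Of 37 glutamate receptor genes, 6 were lower and 1 higher, and the lower ones included the auxiliary subunits Cacng5 (−0.30 ± 0.06) and Cacng4 (−0.22 ± 0.06) and the NMDA receptor subunit Grin2d (−0.20 ± 0.05). The count depends on scaling: 1 was lower and 2 higher after quantile normalization, and 2 and 1 after centring. Gria1, the main AMPA receptor subunit, did not separate (0.05 ± 0.04). Glra2, the glycine receptor subunit of immature neurons, measured 10.00 and 10.06 at 4 weeks, 9.70 and 9.45 at 6 weeks, 9.41 and 9.38 at 10 weeks and 9.26 and 9.31 at 12 weeks (−0.46 ± 0.12, adjusted p = 0.115). Htr1a, the serotonin receptor of granule cells, differed by −0.21 ± 0.05. Of 59 potassium channel genes, 7 were higher and 3 lower, each by 0.25 or less: Kcnk9, Kcnh4 (0.16 ± 0.05), Kcnq3 (0.12 ± 0.05), Kcnj3 (0.12 ± 0.04), Kcns2 (0.11 ± 0.04), Kcnh5 (0.11 ± 0.04) and Kcnc4 (0.09 ± 0.04) were higher. Ano3, a modulator of potassium channels of the anoctamin family, measured 11.52 and 11.35 at 4 weeks, 11.67 and 11.63 at 6 weeks, 11.86 and 11.70 at 10 weeks and 11.86 and 11.97 at 12 weeks (0.31 ± 0.08, adjusted p = 0.113), and its other probe set differed by 0.28.

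Among peptides, Gal, galanin, measured 8.57 and 8.91 at 4 weeks, 8.34 and 7.89 at 6 weeks, 7.82 and 7.88 at 10 weeks and 7.80 and 7.80 at 12 weeks: the young arrays were spread from 7.89 to 8.91, the lowest of them 0.01 above the adult arrays (−0.60 ± 0.17, adjusted p = 0.142). Synaptic lists lay near the background. Of 41 vesicle and release genes, 2 were lower and 1 higher, and of 29 postsynaptic genes 1 and 1; Slc17a6, the vesicular glutamate transporter of immature and subcortical neurons, measured 7.95 and 7.90 at 4 weeks, 7.66 and 7.48 at 6 weeks, 7.22 and 7.23 at 10 weeks and 6.94 and 7.46 at 12 weeks (−0.54 ± 0.12, adjusted p = 0.093), while Syn1 differed by −0.05 ± 0.05. Of 47 immediate early genes, Midn, Pcsk1 (−0.32 ± 0.07) and Nptx2 (−0.18 ± 0.06) were lower and none higher.

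Inflammatory and stress hormone genes had the largest shares of higher members. Of 49 acute-phase and inflammatory genes, 38 had a positive difference, with a median of 0.10, and 6 were higher without overlap, 2 lower. A positive difference was held by 10113 of all 19752 genes and by 6379 of the 14410 that were not dim. Dim genes, 19 of the 49, thus leaned toward higher values in general, and the part of that lean in this list was not tested. The higher ones were Il33, Nfkbiz (0.19 ± 0.04), Cebpb (0.17 ± 0.05), Tnfaip3 (0.15 ± 0.06), Il6ra (0.11 ± 0.04) and Ccl5 (0.10 ± 0.04), and the lower ones the cytokines Il1a (−0.31 ± 0.08) and Il18 (−0.20 ± 0.05). Lcn2, lipocalin 2, had the largest difference of the list, 1.22 ± 0.75, without passing (adjusted p = 0.46): it measured 6.70 and 6.66 at 4 weeks, 8.54 and 7.47 at 6 weeks, 7.09 and 7.06 at 10 weeks and 10.42 and 9.69 at 12 weeks, so that its high values were those of the 12-week arrays and of 6 weeks replicate 1, and the pools overlapped. Of 24 glucocorticoid and stress hormone genes, 3 were higher and 0 lower. These were the glucocorticoid-induced kinase Sgk1 (0.18 ± 0.07), the corticotropin-releasing hormone receptor Crhr1 (0.17 ± 0.05) and Zbtb16 (0.16 ± 0.05), while the glucocorticoid receptor Nr3c1 did not separate (−0.04 ± 0.05). In the microglial marker list beside them 1 of 18 was lower and 0 higher, with a mean level of 9.19 to 9.25 on young and 9.15 to 9.42 on adult arrays.

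The remaining lists are given with their shares of lower members, against 6.56% of all genes. These were 16.7% for insulin-like growth factor, 16.2% for amino acid, 15.2% for lysosome and 10.5% for intermediate filament genes. Circadian genes had 9.09%, neuropeptide genes 8.16% and iron and antioxidant genes 7.32%. In the axis of insulin-like growth factors 3 of 18 were lower, Igfbpl1, which was called and is also a neuroblast gene, Igfbp4 (−0.26 ± 0.05) and Igfbp5 (−0.09 ± 0.04). In the neuropeptide list 4 of 49 were lower and 1 higher, and Sstr2, the somatostatin receptor found on intermediate progenitors, was called (−0.56 ± 0.07, adjusted p = 0.0222). The filament gene Nes, of stem cells, was the called member of its list (−0.42 ± 0.05, adjusted p = 0.0222). In the list of amino acid metabolism 6 of 37 were lower, led by the tryptophan dioxygenase Tdo2 and the mitochondrial serine enzyme Shmt2 (−0.29 ± 0.06). In the lysosome list 5 of 33 were lower, each by 0.15 or less. In the iron and antioxidant list Gpx8, a peroxidase of the endoplasmic reticulum, measured 9.41 and 9.39 at 4 weeks, 9.68 and 9.31 at 6 weeks, 8.92 and 9.11 at 10 weeks and 9.02 and 8.91 at 12 weeks (−0.46 ± 0.08, adjusted p = 0.0594), and Fth1, the ferritin heavy chain, was higher (0.08 ± 0.04). In the circadian list 2 of 22 were lower and 1 higher.

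Scaling moved the counts without turning them in the lists that lead the account. Lower against higher members after quantile normalization were 7 and 1 for lecticans, 10 and 4 for actin genes, 8 and 1 for tubulins, 6 and 1 for contactins and 7 and 1 for chromatin genes. Higher against lower members were 9 and 1 for inflammatory genes, 10 and 0 for potassium channels and 4 and 1 for the glucocorticoid list. In 21 of the 45 lists the order of lower and higher members changed, by turning or by becoming even or uneven, under quantile normalization or centring. After quantile normalization these included the Eph, glutamate receptor, imprinted (2 lower and 3 higher), sphingolipid (5 and 6), fatty acid (3 and 3), collagen (2 and 2), matrix protease (2 and 2), monoamine receptor (2 and 3), vesicle (1 and 2), circadian (1 and 2), heat shock (2 and 3) and intermediate filament (1 and 1) lists. After centring the Wnt (4 and 4), neuropeptide (1 and 1) and GABA and glycine receptor (1 and 3) lists joined them.

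Leaving out an array can only add members without overlap, and in several lists it did so by over 1.5 times. Over all genes the counts rose too, from 1295 lower and 687 higher. They were 1840 and 1080 without 12 weeks replicate 2, and 1608 and 1339 without 12 weeks replicate 1. Without replicates 1 and 2 of 10 weeks in turn they were 1683 and 1036, and 1696 and 1007. Without those of 6 weeks they were 1561 and 1059, and 1795 and 1297. Without 4 weeks replicate 2 they were 1802 and 1107. The list counts below are read against this general rise. Without 12 weeks replicate 2, 14 semaphorin, 10 Eph, 12 RNA-binding, 10 amino acid, 15 fatty acid, 5 insulin-like growth factor, 6 immediate early and 5 iron genes were lower. Without 12 weeks replicate 1, 6 iron and 5 potassium channel genes were lower, and 10 inflammatory and 6 growth factor genes higher. Without 10 weeks replicate 1, 11 RNA-binding and 5 oxidative phosphorylation genes were lower and 10 inflammatory genes higher. Without 10 weeks replicate 2, 8 oxidative phosphorylation and 6 iron genes were lower. Glucocorticoid genes that were higher numbered 5 without that array or without 12 weeks replicate 2. Without 6 weeks replicate 2, 8 neuropeptide, 6 potassium channel, 6 immediate early, 5 protease and 5 oxidative phosphorylation genes were lower. Dropping 6 weeks replicate 1 left 5 protease and 5 immediate early genes lower. Dropping 4 weeks replicate 2 left 10 fatty acid, 6 potassium channel, 6 iron and 5 oxidative phosphorylation genes lower. Lists with 2 or fewer members in a direction reached at most 7 lower or 6 higher, the latter for Eph genes without 10 weeks replicate 2, where BMP genes had 5 higher.

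Some lists held no more members without overlap than all genes did. None of 39 cytosolic ribosomal protein genes separated the pools. Of 50 oxidative phosphorylation genes, 39 (78%) had a negative difference, against 55.7% of genes that were not dim, with a median of −0.03. Of the 50, 3 were lower: Uqcrc1 (−0.10 ± 0.04), Ndufs1 (−0.08 ± 0.05) and Cox5a (−0.07 ± 0.04). None was lower after quantile normalization or centring. In the glycolysis list 1 of 32 was lower and 1 higher, and in the interferon and antigen presentation list 0 of 45 were lower and 1 was higher (Oas2, 0.23 ± 0.07). In the sex steroid and gonadal receptor list, Cyp11a1 was the 1 gene of 21 without overlap. Retinoid and thyroid hormone genes had 1 of 23 lower, complement genes 1 of 23, and heat shock and unfolded protein genes 2 of 40, with Hspa1a at 0.33 ± 0.10 and overlapping pools.

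For comparison, of 125 measured genes in the lists of neurogenesis and oligodendrocytes, 53 were lower without overlap and 16 were called, led by Cd24a (−1.34 ± 0.20), Igfbpl1 (−0.98 ± 0.15), Dcx and Eomes (−0.90 ± 0.08, adjusted p = 0.0053, the smallest of all genes). The 20 calls outside them ran from −0.90 (Sema3c) to −0.27 (Arrb2) among the falls.

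Lists of other cells in or beside the gyrus held no called gene. None of the genes of endothelium (17), pericytes and smooth muscle (12), fibroblasts and meninges (12), choroid plexus (13) or blood (10) separated the pools. The choroid plexus list had a mean level of 7.22 to 8.50 on young and 7.21 to 7.39 on adult arrays, the top value being 6 weeks replicate 1. Without that array 1 of its genes was called. Astrocyte genes had 2 lower of 18, with a mean level of 10.73 to 10.78 on young and 10.68 to 10.72 on adult arrays. Mature granule cell genes had 2 lower (Tdo2, −0.32 ± 0.08, and Prox1, −0.13 ± 0.04) and 2 higher (Ntng1 and Trpc6, 0.22 ± 0.06) of 20. In the neocortex list 4 of 9 were lower (Fezf2 −0.22 ± 0.07, Tbr1 −0.14 ± 0.04, Cux1 −0.10 ± 0.04, Rorb −0.08 ± 0.05), and 0 were after quantile normalization or centring.

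The 8-week arrays took no part in the pooling or the test. For all 35 genes called as lower their mean lay between the pool means, at a median of 0.54 of the way from young to adult. Replicate 1 lay in the space between the pools for 31 of the 35 and in the young range for 4, and replicate 2 for 29, with 3 in the young and 3 in the adult range. Of the steps between successive ages, the largest was that from 8 to 10 weeks in 17 of the 35 genes and from 6 to 8 weeks in 10. It was that from 4 to 6 weeks in 8 and from 10 to 12 weeks in 0. Over all 19752 genes these counts were 5729, 7310, 3277 and 3436. Calls favour genes with little spread inside a pool. The counts for the 35 genes therefore partly follow from their selection and do not time the change. Of the 35 genes, 20 moved the same way at every step, as did 670 of all genes. Arrb2 (0.16 of the way), Apcdd1 (0.19) and Cyp11a1 (0.29) were still near the young mean at 8 weeks, whereas the myelin genes Cldn11 (0.81), Cnp (0.75) and Mag (0.73) were near the adult mean. With 2 arrays at 8 weeks, these positions are descriptions and were not tested against each other.

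**Figure D4:**
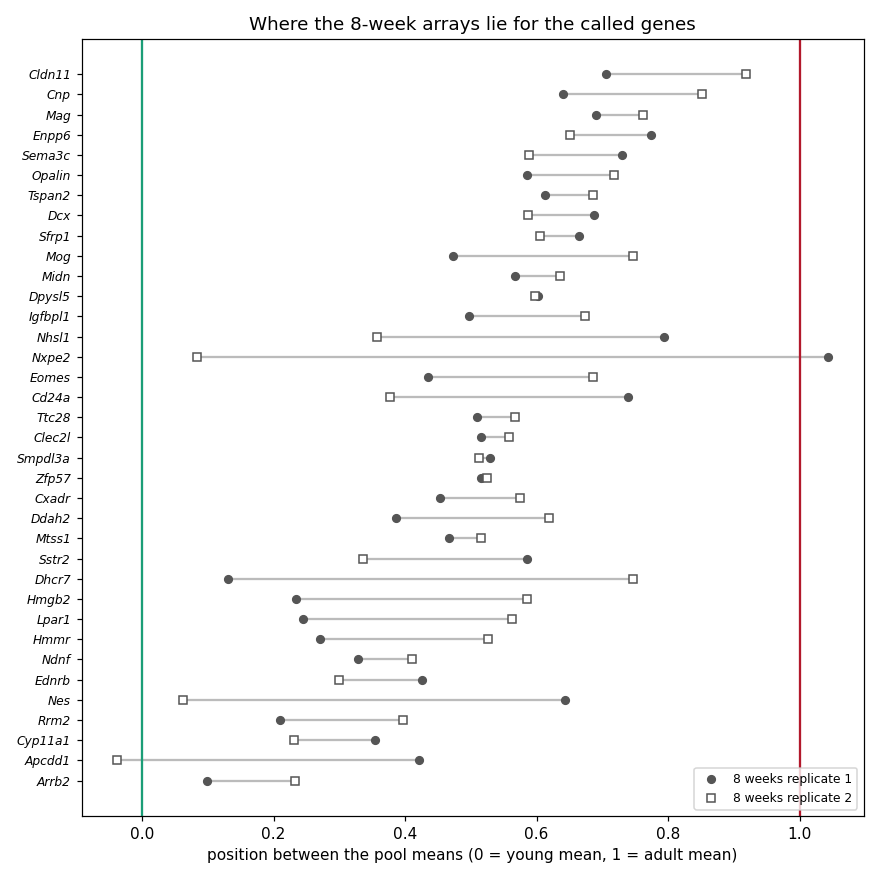
Position of each 8-week array for the 36 called genes, as a fraction of the way from the young mean (0) to the adult mean (1); filled circles are replicate 1, open squares replicate 2, and grey lines join them. The mean position runs from 0.16 for Arrb2 to 0.81 for Cldn11, and the replicates of Nxpe2, the 1 called rise, lie at opposite ends.

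For the wider set without overlap the 8-week arrays were less informative. The 8-week mean lay between the pool means for 962 of the 1295 lower genes and for 369 of the 687 higher genes, against 5980 of all 19752 genes. The replicates differed: replicate 1 lay beyond the adult range for 265 of the 687 higher genes and replicate 2 for 39. This imbalance was general, at 5992 and 1480 of all 19752 genes. Among genes with a difference of at least 0.3, the 8-week mean lay between the pool means for 129 of 133 lower and 23 of 26 higher genes.

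**Figure D5:**
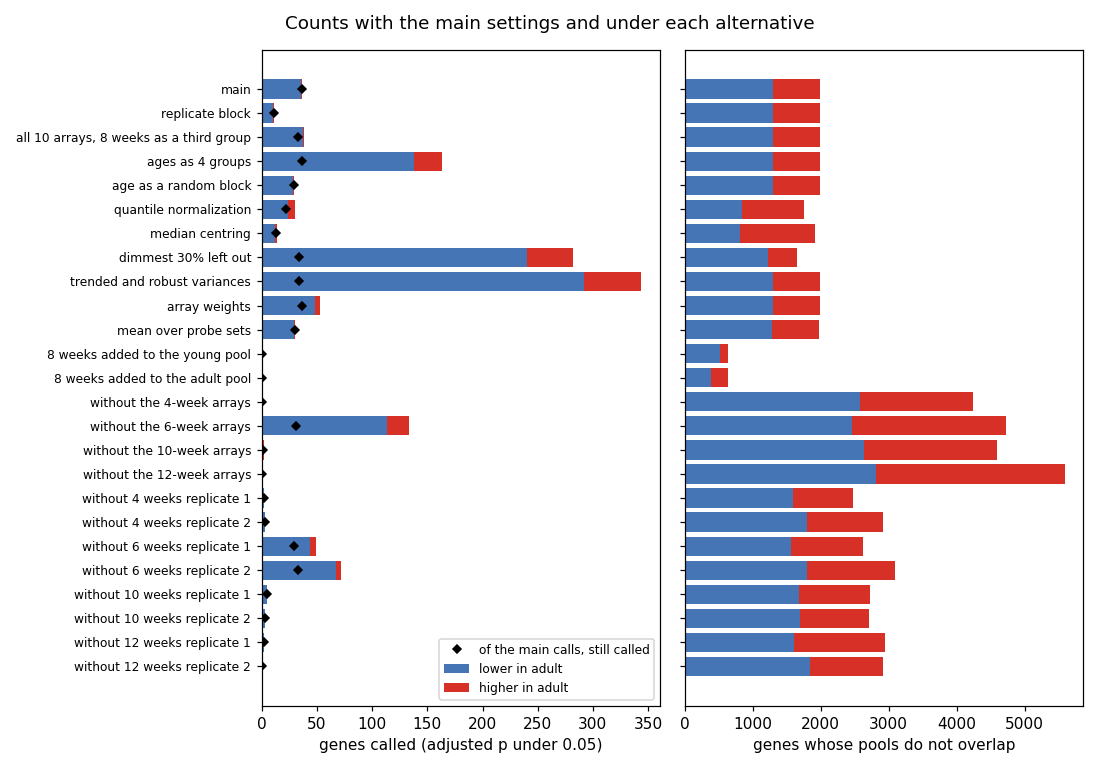
Genes called (left) and genes without overlap (right) with the main settings and under each alternative, lower in blue and higher in red; diamonds count how many of the 36 main calls were called again. Counts of calls run from 0 to 344, and lower genes outnumber higher ones among the calls in all settings with more than 2 calls.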

How the data were processed

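Gene expression was measured on 10 whole-transcript Affymetrix arrays of dentate gyrus RNA, 2 at each of 5 ages. The deposited values are taken as log2 expression per probe set; how the authors summarised and normalized them, and the log base, are not given in the sources used here, and the submitters' processing notes name only the genome build mm10. A wrong base would rescale every difference but not the tests. No depth exists for arrays; their number limits the precision.

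Of 25254 probe sets, 21496 were annotated to 1 gene, 1565 to several and 2193 to none; only the first kind was named. Where a gene had more than 1 probe set (938 genes), that of highest mean was used, giving 19752 genes. A gene was called dim when its mean lay under 6.99, the mean of the arrays' 95th percentiles over 1207 receptor genes not expected in the tissue.

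The pools were compared with limma 3.58.1 in R 4.3.3 (lmFit, eBayes, 1 coefficient, 6 residual degrees of freedom, adult minus young, two-sided), with Benjamini-Hochberg adjustment over all genes and a threshold of 0.05. The script was tested on simulated data. A gene without overlap has all 4 arrays of 1 pool above all 4 of the other, which is a description. The arrays compared, the lists and the rules were chosen with earlier results of these data known. Genes named by rule were, among genes that were not dim and outside the neurogenesis and oligodendrocyte lists, the 12 largest called falls, the 12 rises of smallest p (none was called) and the 8 widest gaps in each direction, and from each list the called members or else the largest and first member. Predicted genes were counted, not named. Alternatives covered normalization, the filter on dim genes, the variance model, probe sets, the pool limits, the ages as groups or as a random block, a replicate block and leaving out arrays. Promoters and symbols come from RefSeq (GRCm38.p6); 81 genes were not in that table.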

Additional observations from a re-analysis of the deposited data

Results flagged for a closer look

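Among the 131 genes named by rule, each pool of 4 arrays was searched for an array far from the other 3 by Dixon's criterion. Of 262 pools, 8 held one, and 1 of the 8 concerned a called gene. For 4 values from 1 normal distribution chance gives about 1 in 20, a higher rate than that found. Each pool mixes 2 ages and many genes were picked by p or gap, so that rate need not apply. The arrays below are given as values only. In the young pool, 4 weeks replicate 1 stood apart for Vav3, at 9.11 against 8.98 to 8.99, and for Acan, at 8.3 against 8.17 to 8.18. The array of 6 weeks replicate 1 had Htr2c, a serotonin receptor gene also abundant in choroid plexus, at 8.87 against 7.56 to 7.67, and it is the array with Ttr at 13.77. The array of 6 weeks replicate 2 had the interferon-induced gene Ifit3 at 8.73, below 8.90 to 8.92. In the adult pool, 12 weeks replicate 2 had Enpp6, a called gene of new oligodendrocytes, at 7.53 against 7.43 to 7.44, and the gelatinase gene Mmp2 at 8.29 against 8.07 to 8.10. The array of 12 weeks replicate 1 had Mmp8 at 5.87 against 5.32 to 5.41, and Sptlc1, a subunit of the first enzyme of sphingolipid synthesis, at 8.8, below 8.91 to 8.93.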

How the results depend on the processing

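In most of the 24 alternatives the sign of a called gene was fixed, because the pools did not overlap; in the 5 that could change it (quantile normalization, centring, the mean over probe sets and the 8-week arrays added to either pool) all 36 genes kept it. The number called was not stable. Against 36, limma called 163 genes with the ages as 4 groups, 282 with the dimmest 30% left out, 344 with trended and robust variances, 14 with median centring, 133 without the 6-week arrays, 2 without the 10-week arrays, and 0 without the 4-week arrays, without the 12-week arrays or with the 8-week arrays added to the young or to the adult pool. Leaving out 1 array gave 0 to 72. Between 29 and 53 were called with age as a random block, quantile normalization, the mean over probe sets, all 10 arrays and array weights. The 30 genes called after quantile normalization were 24 lower and 6 higher, and held 22 of the 36. Genes without overlap, 1982 in all, numbered 640 and 637 with the 8-week arrays in the young or the adult pool, 4236, 4732, 4594 and 5589 without the arrays of 4, 6, 10 and 12 weeks, where fewer arrays have to separate, 2481 to 3092 without 1 array, and 38 with a gap of at least 0.2. The fit with replicate number as a block called 11 genes, all among the 36; the replicate deviations of the ages correlated at 0.0273 to 0.16, so the numbers were not taken to pair arrays. For single named genes, 2518 values were unchanged, either called again or uncalled in both fits with a move smaller than the spread. The 36 called genes lost their call in 475 values, and uncalled genes gained one in 105. A further 42 uncalled values moved by more than the spread and 0 reversed. The cause of these changes was not tested. With 4 arrays a pool, the smallest change called was that of Arrb2 (−0.27), and no smaller one was called.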

Other observations

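Probe sets outside the named genes also separated the pools without overlap. Of the 1565 probe sets annotated to several genes, 34 were higher and 63 lower in the adult pool, 6.20% together. Of the 2193 with no gene, 92 were higher and 72 lower, 7.48% together. No gene can be named from either kind here.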
